A study of Drosophila melanogaster with 3 samples.

Results

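The genes described here are 10 genes of the fly Dpp pathway: the ligand genes dpp and gbb, the receptor genes tkv, sax and put, the Smad genes Mad, Med and Dad, and the nuclear factor genes shn and brk. The rule that picks them goes by their place in the pathway and uses no measured value, but they were proposed with earlier results of these data known. They are 10 of the 13945 protein-coding genes of the annotation. Every summit of USP occupancy in the body of such a gene or within 1000 bp upstream of it was counted, which gave 71 of the 11195 summits of the thresholded list, or 0.634%. A summit is the base of highest enrichment within a peak.

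The study profiled by ChIP-seq, in 3 biological replicates, the occupancy of USP (Ultraspiracle), the RXR relative that forms the ecdysone receptor with EcR, with an antibody against GFP. All 3 came from the same group, the strain usp-GFP, in which a stable transgene carries usp fused at its C-terminus to eGFP, and each was made from mixed-sex wandering larvae of the third instar, taken whole and of unknown age. No second genotype, stage or treatment was compared, and the labels do not say what drives the tagged usp or whether it adds to the native copies. Signals from all tissues were therefore pooled within each library, and the peak lists hold no expression values against which the label "whole organism" could be checked.

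Dpp is a secreted ligand of the BMP type that shapes the wing disc and other tissues of the larva. It binds paired receptor kinases of types I and II, which phosphorylate Mad. Mad then joins Med, enters the nucleus and, together with the zinc finger protein Schnurri (shn), silences brk, which encodes a repressor of Dpp target genes. Dad, an inhibitory Smad, is induced by the pathway and dampens it.

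The bases around 5 of the summits are shown because they hold the letters discussed with the motifs below or, for tkv, the strongest summit of all 10 genes. Each is the window of 201 bases centred on the summit, on the + strand of dm6, with letters from RefSeq's assembly of the same build, and none touches an annotated exon. In the dpp and brk windows the capitals mark runs of the GAGA factor core on the opposite strand, which reads CTCTC here. In the first tkv window no motif that was searched had a match, so it has no capitals. In the second tkv window the capitals mark the nuclear receptor motif AGGTCA, and in the Dad window they mark sites of the Brinker type.
dpp, intron upstream of an inner start site (chr2L:2450955-2451155): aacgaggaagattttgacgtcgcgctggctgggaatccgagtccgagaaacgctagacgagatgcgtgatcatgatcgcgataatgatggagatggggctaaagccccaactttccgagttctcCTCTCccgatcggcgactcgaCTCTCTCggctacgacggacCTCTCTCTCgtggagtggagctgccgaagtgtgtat
brk, upstream (chrX:7307590-7307790): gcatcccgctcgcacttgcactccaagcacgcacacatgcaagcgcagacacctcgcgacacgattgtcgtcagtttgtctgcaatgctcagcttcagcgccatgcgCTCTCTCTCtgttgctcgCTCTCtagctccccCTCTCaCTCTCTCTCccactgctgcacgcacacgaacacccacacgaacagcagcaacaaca
tkv, intron, strongest summit (chr2L:5229760-5229960): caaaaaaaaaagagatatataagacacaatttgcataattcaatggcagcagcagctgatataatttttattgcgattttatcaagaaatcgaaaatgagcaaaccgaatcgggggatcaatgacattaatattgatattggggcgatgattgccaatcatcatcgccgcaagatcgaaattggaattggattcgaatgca
tkv, intron (chr2L:5261309-5261509): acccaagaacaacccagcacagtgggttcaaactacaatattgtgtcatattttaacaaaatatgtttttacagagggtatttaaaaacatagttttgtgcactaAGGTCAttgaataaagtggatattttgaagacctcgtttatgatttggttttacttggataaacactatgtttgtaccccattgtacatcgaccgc
Dad, intron (chr3R:17065322-17065522): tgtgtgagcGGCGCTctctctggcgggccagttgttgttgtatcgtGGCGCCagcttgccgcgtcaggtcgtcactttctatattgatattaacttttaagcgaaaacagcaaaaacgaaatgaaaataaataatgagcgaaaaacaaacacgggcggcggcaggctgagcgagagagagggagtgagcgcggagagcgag

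All 10 genes held at least 1 summit of the thresholded list, against 35.8% of all protein-coding genes. In the replicates' own lists, each limited to its 11195 strongest peaks (called strong from here on), 9 of the 10 held a summit in each replicate and gbb held none in any, against 35.9%, 33.8% and 36.9% of protein-coding genes in replicates 1, 2 and 3. The pooled list of 30000 peaks, from which the thresholded list was drawn, also held a summit at all 10 genes, against 49.2% of protein-coding genes. Longer genes hold summits more often: the share with a summit was 28.7% under 5 kb (gbb, sax, Med and brk), 55.3% from 5 to 20 kb (put, Mad and Dad), 61.2% from 20 to 40 kb (dpp) and 61.8% over 40 kb (tkv and shn).

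The 10 genes differed widely among themselves. The gene shn alone held 35 summits, or 49.3% of the total, and shn and tkv together held 51, or 71.8%. Dad held 8, dpp and put 3 each, brk 2, and gbb, sax, Mad and Med 1 each. The replicates' own strongest lists held 64, 75 and 66 summits over the 10 genes in replicates 1, 2 and 3, a mean of 68.3 ± 5.86 (SD, n = 3), so replicate 2 was the highest. In this order of counts the replicates of shn (33 to 35), tkv (13 to 17) and Dad (8 to 10) did not overlap. The counts of dpp, put, sax, Mad and brk overlapped in the replicates. Those of Med (1 in each replicate) overlapped with put, sax, Mad and brk but not with dpp (3, 3 and 2).

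**Figure D1:**
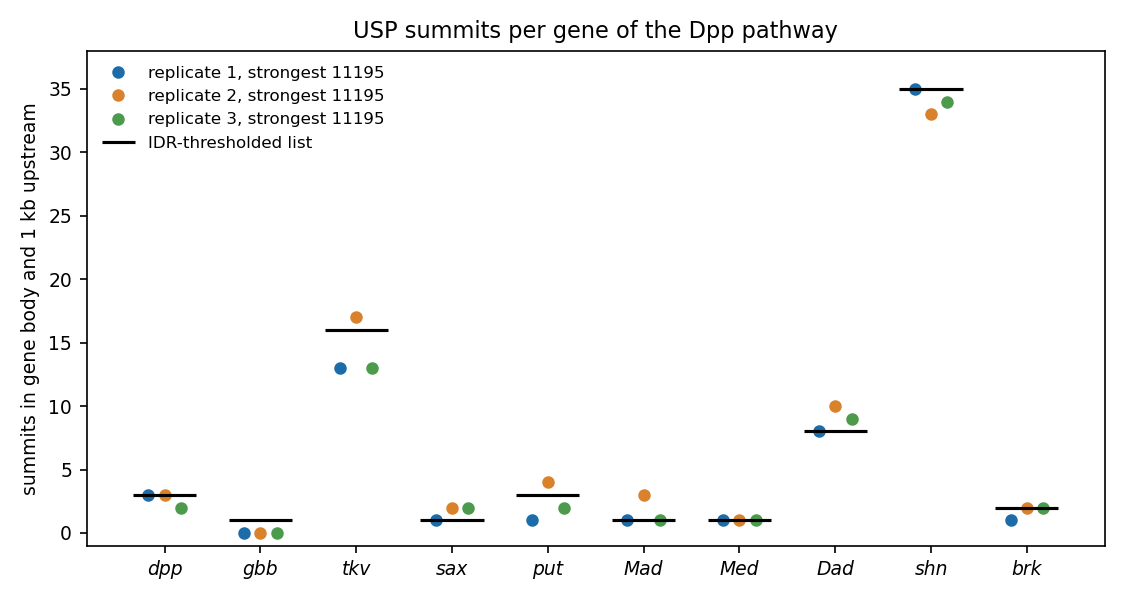
Number of USP summits in the body and 1 kb upstream of each gene (y axis) for the 10 Dpp pathway genes (x axis), with points for the 11195 strongest peaks of each replicate and a black line for the thresholded list. The points of shn lie between 33 and 35, above those of tkv (13 to 17) and Dad (8 to 10), and the other genes have 4 or fewer.

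The peak caller's signal is the authors' own value per peak. It is not scaled between libraries, so it is used here only as a rank within a list, with rank 1 the strongest. By this rank the 71 summits were spread over the list much as all summits are: their median rank was 5592 against 5598 for the list, and 36 of them (50.7%) lay among the 5597 strongest. Only 4 were among the 1000 strongest, 1 of them at tkv and 3 at shn, and 13 were among the 2000 strongest. Counted once per summit, the intervals at these genes had a median width of 767 bp, against 642 bp for the whole list. A long interval with several summits thus counts more than once, such as that of 2952 bp with 5 summits at shn. These medians therefore do not show that the intervals at these genes are wider.

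**Figure D2:**
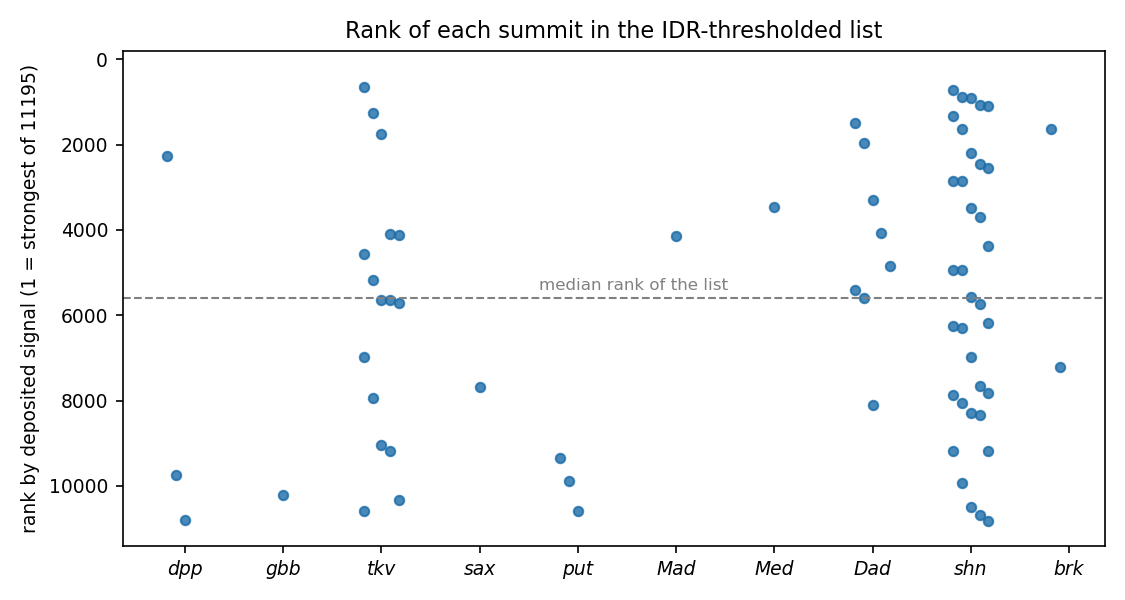
Rank by deposited signal (y axis, 1 at the top being the strongest of 11195) of every summit at each of the 10 genes (x axis), with a dashed line at the median rank of the list. Summits of tkv and shn run from the top of the scale to the bottom, and those of gbb, sax and put all lie below the line.

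The 2 ligand genes carried few summits. The gene dpp (FBgn0000490) spans 31452 bp on 2L from 2428372 to 2459823 on the + strand, and its strongest summit, at 2451055, had a signal of 1559 and rank 2275. This summit had ranks 2201, 2728 and 2203 in the full lists of replicates 1, 2 and 3, so it stood at a like height in all of them. It lay 174 bp upstream of the start site at 2451229, and the other summits, at 2433014 and 2433693 in intronic sequence nearer the 5′ end, were near the end of the list at ranks 9738 and 10803. Replicates 1, 2 and 3 held 3, 3 and 2 strong summits at dpp (2.67 ± 0.577, SD, n = 3).

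The 3 other start sites of dpp had no thresholded summit within 500 bp. Of all start sites of protein-coding genes 28.4% had one. Weaker pooled summits lay 245 bp and 42 bp from the first of them, at ranks 13503 and 26803, and 101 bp from the start site at 2454737, at rank 15356. The cis-regulatory region 3′ of dpp, known for its disc enhancers, lies outside the gene body. The stretch of 28373 bp from the end of dpp to the next protein-coding gene, Slh, held 2 summits, at 2481377 (rank 7403) and 2487072 (rank 8813), and the replicates held 2, 3 and 2 strong summits there.

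The gene gbb (FBgn0024234), whose product is a BMP ligand of broad expression that can act together with Dpp, is 1686 bp long and lies on 2R from 23851562 to 23853247. Its only summit, at 23851163, had a signal of 407 and rank 10222. That summit had no counterpart in the list of replicate 1 and stood at ranks 11968 and 11784 in those of replicates 2 and 3, so no replicate held it among its strongest. It lay 399 bp upstream of gbb but 90 bp from the nearest start site of the divergent gene ytr. The upstream windows or bodies of eIF6 and asRNA:CR45928 also held it, with start sites 862 bp and 833 bp away, and the list does not tie it to any of them.

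Among the receptors, tkv stood apart. This gene (FBgn0003716) encodes the type I receptor that Dpp uses in the wing disc, and it spans 52385 bp on 2L from 5219000 to 5271384 on the − strand. Its 16 summits lay in 11 intervals, and replicates 1, 2 and 3 held 13, 17 and 13 strong summits (14.3 ± 2.31, SD, n = 3). Only 39 protein-coding genes had more summits. Among the 461 protein-coding genes over 40 kb, tkv ranked 24 by summits per kb (0.3, with a median of 0.0269 over these genes).

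The strongest summit of tkv, at 5229860, was also the strongest of all 10 genes, with a signal of 3632 and rank 661. It stood at ranks 570, 989 and 619 in replicates 1, 2 and 3, so replicate 2 placed it lowest. It lies in the intron before the last exons, and its window is the first of the tkv sequences printed above. The next strongest were at 5256350 (rank 1262, and 1314, 1450 and 1262 in the replicates) and 5253493 (rank 1754, and 1884, 1325 and 1853), both within the long first intron.

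Of the tkv summits 12 (75.0%) were intronic. An interval of 2977 bp, from 5252051 to 5255027, held 4 of them. Of its 4 start sites 2 had a summit within 500 bp: the outermost, with a summit 233 bp away at rank 10339, and the innermost, at 5237362, with a summit 274 bp away at rank 5719. The summit at 5241140, rank 9039, lay 37 bp from the gene tRNA:Asp-GTC-1-1 inside tkv. In the full pooled list tkv had 40 summits, and 9 of the 24 weaker ones (37.5%) were found in the full lists of all 3 replicates, against 39.9% of all weaker pooled summits.

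The other receptor genes carried few and weak summits. The gene sax (FBgn0003317), which encodes another type I receptor, lies on 2R from 7806484 to 7810067, and its summit at 7805718 had rank 7673 and ranks 10753, 8066 and 6357 in replicates 1, 2 and 3. It lay 766 bp upstream of sax and 152 bp from the nearest start site of the divergent gene Nop17l. A weaker summit 20 bp from the sax start site fell just outside the thresholded list, at rank 11650 of the pooled list, although replicates 2 and 3 placed it at 9070 and 10119. Replicate 1 placed it lower, at 15370.

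The gene put (FBgn0003169), which encodes the type II receptor Punt, lies on 3R from 14619030 to 14625703 on the − strand, and its 3 summits had ranks 9337, 9882 and 10592. The replicates held 1, 4 and 2 strong summits there (2.33 ± 1.53, SD, n = 3), so replicate 2 was highest and replicate 1 lowest. The summit of best rank, 75 bp from the start of put, was at 9587 in replicate 1 and 7243 in replicate 2 and had no counterpart within 100 bp in replicate 3. It and the summit at 14625831 lie within 500 bp of the start of the divergent gene His4r as well.

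Mad and Med, the Smads that carry the signal to the nucleus, had 1 summit each, at their 5′ ends. The summit of Mad (FBgn0011648, on 2L from 3146056 to 3159643, − strand) lay at 3159318, 325 bp inside the gene, with a signal of 970 and rank 4132. Its ranks in replicates 1, 2 and 3 were 4264, 3184 and 4934. The summit of Med (FBgn0288966, on 3R from 31611046 to 31615375) lay at 31611304, 258 bp inside the gene, with a signal of 1118 and rank 3472. It stood at 3826 and 2929 in replicates 2 and 3, and the strong summit of Med in replicate 1, at rank 3622 of its list, lay 105 bp away.

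Both are shared with neighbours: the summit of Mad lay 632 bp from the start of gkt, and that of Med lay within CycG, 326 bp from a start site of it. In the 14841 bp between Med and RpL6, the nearest upstream protein-coding gene that does not overlap Med, lay 10 summits, 9 of them within CycG, with a best rank of 271. Of these 10, 5 ranked above the summit of Med and 5 below it, and the lists do not tie them to either gene.

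Dad (FBgn0020493), the inhibitory Smad, spans 16402 bp on 3R from 17054007 to 17070408 on the + strand and held 8 summits in 6 intervals. The replicates held 8, 10 and 9 strong summits (9.0 ± 1.0, SD, n = 3), the lowest count in replicate 1. Among genes of 5 to 20 kb the median number of summits was 1, and the 90th percentile was 5. The strongest summit of Dad, at 17065422 in an intron, had a signal of 2069 and rank 1494, and ranks 1360, 1521 and 1753 in the replicates. The summits at 17056500 and 17056701, within an interval of 922 bp, had ranks 1955 and 3296.

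Of the Dad summits 7 (87.5%) were intronic, and 7 were strong in all 3 replicates. The exception was the summit at 17067397, rank 5592, which had no counterpart within 100 bp in replicate 1. The first start site had a summit 29 bp away at rank 8103, the weakest of the gene. Its ranks were 7527, 8152 and 8590 in the replicates.

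The gene shn (FBgn0003396) encodes a large zinc finger protein that joins Mad and Med at silencer elements. It spans 58309 bp on 2R from 11159086 to 11217394 on the + strand, and its 35 summits lay in 25 intervals. Replicates 1, 2 and 3 held 35, 33 and 34 strong summits (34.0 ± 1.0, SD, n = 3), so the lists hardly differed in number. Only 4 protein-coding genes had more summits, and shn ranked 3 of the 461 genes over 40 kb by summits per kb, at 0.59 against a highest value of 0.715 at Eip75B.

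The protein-coding genes closest to shn in number of summits were bun, CG46467 and Glut4EF with 36 each and jing with 34. CG46467 and Glut4EF overlap and share their summits. All 4 are longer than shn, from 91072 bp at bun to 120684 bp at Glut4EF, and all 4 had a better best rank than the 719 of shn: jing 27, bun 153, and CG46467 and Glut4EF 313.

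The summits of shn were not evenly spread along the gene. The first 10 kb held none in the pooled list or in the strong peaks of any replicate, and the first summit, at 11173663, lay 14.6 kb from the outermost start site. The next stretches of 10 kb held 4, 8, 10 and 10 summits, and the last stretch, from 50 to 58.3 kb with the large 3′ exons, held 3. In the replicates the same stretches after the first held 4, 9, 9, 10 and 3 summits in replicate 1, 4, 10, 8, 8 and 3 in replicate 2, and 3, 7, 11, 10 and 3 in replicate 3.

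**Figure D3:**
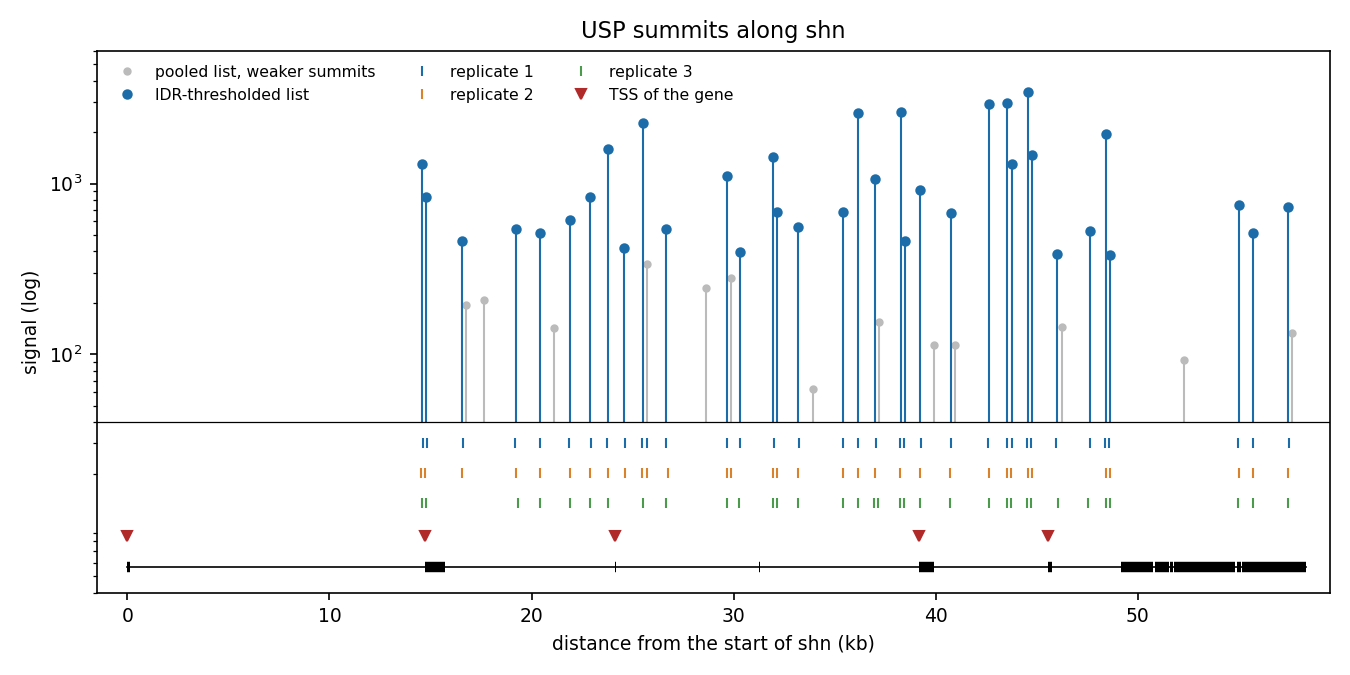
Summits along shn by distance from its outermost start site (x axis, kb), with their signal on a log scale (y axis), blue for the thresholded list and grey for weaker pooled summits, and beneath them ticks for the 11195 strongest peaks of each replicate, triangles for start sites, boxes for exons. No summit lies before 14.6 kb, and the 3 of highest rank lie in the intron between the innermost pair of start sites.

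The strongest part of shn was an interval of 2952 bp in an intron, from 11201386 to 11204337, which held 5 summits. They were at 11203634 (signal 3423, rank 719), 11202602 (signal 2953, rank 894), 11201721 (signal 2914, rank 915), 11203848 (signal 1468, rank 2448) and 11202860 (signal 1304, rank 2857). The summit at 11203634 stood at ranks 627, 902 and 793 in replicates 1, 2 and 3, that at 11202602 at 952, 955 and 906, and that at 11201721 at 846, 1087 and 941. No replicate placed any of these 3 below rank 1087. The interval ends upstream of the start site at 11204629, whose nearest summit, 459 bp downstream, had rank 10672.

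Of the 5 start sites of shn, 4 had a summit within 500 bp. The start site at 11198276 had the nearest, 21 bp away at rank 4377 (4576, 4419 and 4090 in the replicates). That at 11173803 had a summit 60 bp away at rank 4930, and that at 11183224 had one 339 bp away at rank 2185. The latter stood at ranks 4955, 1048 and 2393 in the replicates, so replicate 1 placed it well below the others. By position 26 summits of shn (74.3%) were intronic, 6 (17.1%) lay within 500 bp of a start site, 2 were in coding sequence and 1 in the 3′ UTR.

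Of the shn summits 28 were strong in all 3 replicates and 34 had a counterpart in the full lists of all 3. The exception was the summit at 11206741, rank 8050, found in replicate 1 at rank 6545. The nearest summit of replicate 3 lay 102 bp away, and that of replicate 2 lay 768 bp away. Spearman's rho between the signals of replicates over shared shn summits had a mean of 0.85 ± 0.0466 (SD over 3 pairs, 34 summits each), and over 15 shared tkv summits it was 0.7 ± 0.032. These correlations describe neighbouring summits of the same libraries and carry no test.

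The gene brk (FBgn0024250) encodes the Brinker repressor and lies on X from 7307939 to 7311132 on the + strand. Its body held no summit, and both counted summits lay upstream in 1 interval, at 7307690 (signal 1939, rank 1643) and 7307894 (rank 7202). The stronger stood at ranks 2509, 1556 and 1325 in replicates 1, 2 and 3, and the weaker at 13911, 4354 and 8743, so replicate 1 placed both lowest. The weaker lay 45 bp from the start site of brk.

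The counting window left out most summits near brk. The 16640 bp from brk up to unc-119, the nearest upstream protein-coding gene that does not overlap brk, held 15 summits, of which 13 lay beyond 1000 bp. The replicates held 12, 16 and 18 strong summits in this stretch. The strongest was at 7306785, 1154 bp upstream of brk, at rank 1265, and the others beyond 1000 bp that were among the 2000 strongest were at 7304043 (rank 1641) and 7294379 (rank 1775). The 3489 bp downstream, as far as Atg5, held none. The whole upstream stretch lies within the genes CG1677 and lncRNA:CR44357, whose nearest start sites are 21495 bp and 97903 bp or more from the summits at brk, and the lists do not say on which gene these sites act.

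**Figure D4:**
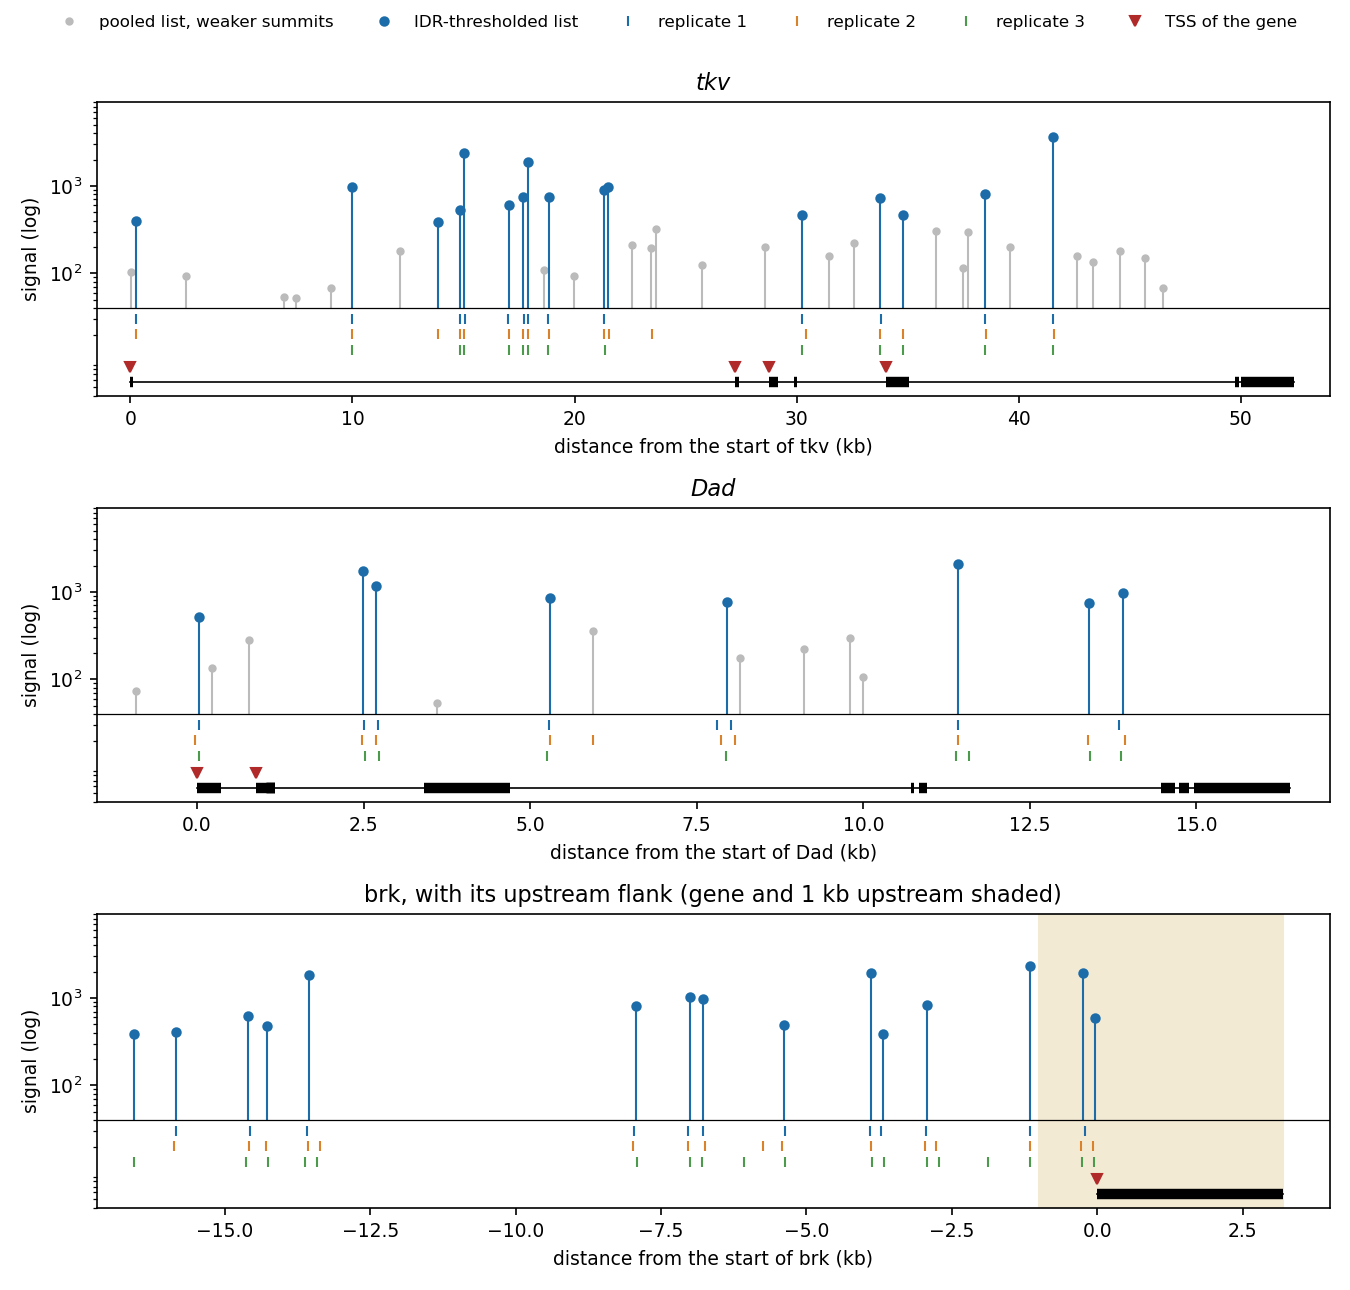
Summits along tkv, Dad and brk by distance from the outermost start site (x axes, kb), drawn as for shn, with the gene and 1 kb upstream shaded for brk, where weaker pooled summits and overlapping genes are not drawn. Summits of tkv concentrate in the long first intron with the strongest near the 3′ end, those of Dad spread through its introns, and those of brk all lie upstream.

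Over the 10 genes, 51 of the 71 summits (71.8%) lay within 100 bp of a strong summit of all 3 replicates, against 71.2% of the whole list. With the full lists of the replicates the figures were 65 (91.5%) against 91.6%. Replicate 1 had no part in the thresholded list, and it held 61 of the 71 (85.9%) among its strongest peaks, against 87.4% of all summits. Repeatability at these genes was thus near that of the whole list and is not a result about them. Of the 61 weaker pooled summits at the 10 genes, 20 (32.8%) were found in all 3 full lists, against 39.9% of all weaker pooled summits.

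By position, 48 of the 71 summits (67.6%) were intronic, against 42.0% of all summits, and 19 (26.8%) lay within 500 bp of a start site of any gene, against 43.1%. Within the replicates' own lists the promoter share at the 10 genes was 25.0%, 26.7% and 22.7% (24.8 ± 1.98, SD, n = 3). Without shn the promoter share was 36.1% and the intronic share 61.1%. Choosing by gene body leaves out intergenic summits, which were 9.72% of the list, and long genes supply most of the summits here. The 10 genes have 23 annotated start sites, of which 13 (56.5%) had a summit within 500 bp, against 28.4% for protein-coding genes. Of the 71 summits, 9 also lay in the body or upstream window of another gene. No such share over all summits is given, so this count is not a result about the 10 genes.

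Several summits shared an interval. The 18 gaps between neighbouring summits of an interval at the 10 genes had a median of 215 bp and a minimum of 199 bp. Over the whole list the 2280 gaps had a median of 209 bp and the same minimum. The sonicated fragments were 200 to 800 bp long, per the labels, and the part of the caller in splitting such pairs was not tested.

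Sequence motifs were searched on both strands within 100 bp of each summit. The palindromic ecdysone response element bound by EcR with USP had no match at the 71 summits, which allows a share of up to 4.23%, and 50 matches among all 11195 (0.447%). With 1 mismatch allowed it matched at 2 summits (2.82%), 1 of shn and 1 of tkv, against 3.74%. The hexamer AGGTCA, a core that nuclear receptors bind, matched at 4 summits (5.63%, exact 95% interval 1.56 to 13.8) against 6.24%. These were at dpp 2433693, tkv 5261409, and shn 11201721 and 11199822. The match at tkv lies 5 bp from the summit and is printed above.

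The GAGA factor core GAGAG matched at 22 of the 71 (31.0%, exact 95% interval 20.5 to 43.1) against 34.5%, the GATA factor core GATAAG at 12 (16.9%) against 18.2%, and the E-box CACGTG at none, with the same limit of 4.23%, against 3.06%. The strongest dpp summit had 6 matches of GAGAG, and the stronger brk summit had 8, all of them on the strand opposite to that printed and with overlapping matches each counted. The strongest tkv summit had no match to any motif searched.

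Motifs of the pathway's own factors were searched as well. The Smad binding element GTCTG matched at 26 summits (36.6%, exact 95% interval 25.5 to 48.9) against 25.6%, and the GC-rich Mad site GCCGNCGC at 5 (7.04%, 2.33 to 15.7) against 3.36%. The Brinker site, GGCG followed by a pair of pyrimidines, matched at 22 (31.0%, 20.5 to 43.1) against 21.8%. Each of these 3 shares was above that of the whole list, and each interval held the share of the whole list. The intervals cover counting error only and treat summits as independent, although many are neighbours within a gene. Matches of the Brinker site can overlap those of the GC-rich Mad site.

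The Brinker site matches within 100 bp were unevenly spread: 7 of the 8 Dad summits had at least 1, as had both brk summits. So had 10 of 35 shn summits (28.6%) and 2 of 16 tkv summits (12.5%), against 21.8% of all summits. None of the 3 dpp summits had any. The share at Dad depended on the window. Within 50 bp, 1 of the 8 Dad summits (12.5%) had a match, against 11.5% of all summits, and both brk summits had one. At the strongest Dad summit the matches within 100 bp were GGCGCT and the palindrome GGCGCC, counted on both strands, which the capitals in its sequence mark. The silencer element at which Shn joins Mad and Med had no match within 100 bp of the 71 summits, again with that limit, and 7 among all summits (0.0625%). Within 200 bp it matched at 1 of the 71 (1.41%, exact 95% interval 0.0357 to 7.6), a shn summit, against 26 of all summits (0.232%). A match here means that the letters are present, and no match says only that they are absent from that window.

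**Figure D5:**
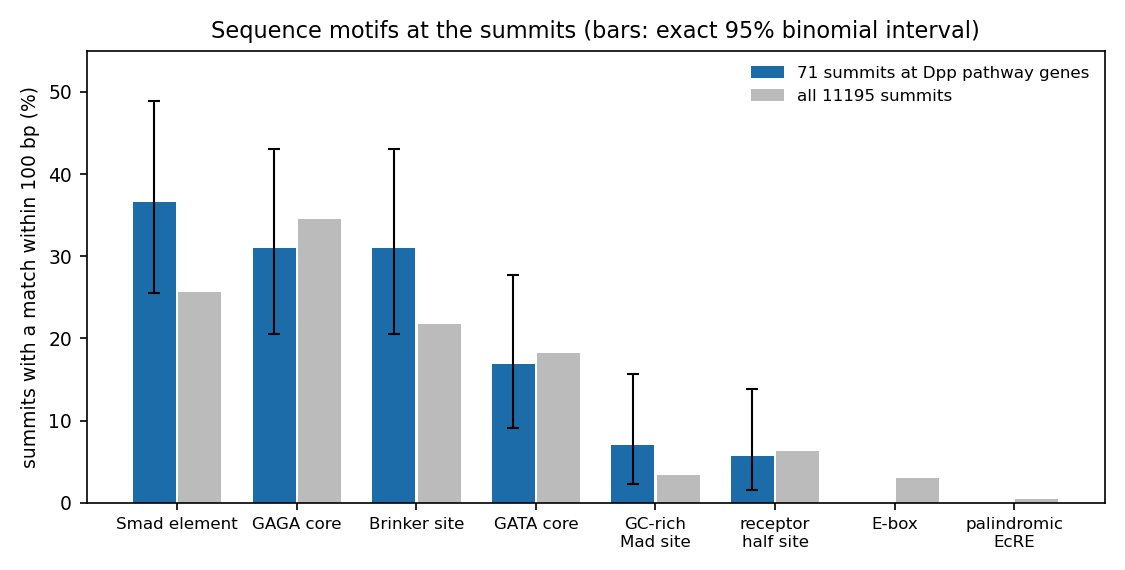
Share of summits with a match within 100 bp (y axis, %) for 8 sequence motifs (x axis), in blue for the 71 summits at the 10 genes with exact 95% binomial intervals (none drawn where there was no match) and in grey for all 11195 summits. Each interval drawn contains the share of the whole list.

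A wider list of 42 genes of BMP and Activin signalling, of which the 10 genes are part, showed how occupancy fell by role. Of the 42, 30 had a summit (71.4%), and of the 32 others, 20 had one (62.5%), against 35.8% of all protein-coding genes. All 4 Smad genes and all 6 nuclear factor genes had one, as had 4 of 5 receptor genes and 3 of 7 ligand genes. These 4 roles include the 10 genes. Without them the counts were 1 of 1 Smad gene, 4 of 4 nuclear factor genes, 1 of 2 receptor genes and 1 of 5 ligand genes. The ligand genes Actbeta, myo and mav, which had none, all lie on chromosome 4, and the part of the chromosome was not tested. In the other roles, 8 of 10 extracellular modulators, 3 of 4 intracellular regulators and 2 of 6 wing target genes had one. Gene length differs between these roles, and no list was tested. The share of 35.8% was not matched to the lengths of the listed genes. By length class it ran from 28.7% of genes under 5 kb to 61.8% of those over 40 kb.

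Outside the 10 genes, 5 of the wider list had a summit among the 1000 strongest: CtBP, a corepressor that Brinker recruits (rank 96, 6 summits), nmo, a kinase that acts on Mad (rank 242, 16 summits), sbb, also known as mtv or scribbler (rank 464, 30 summits), Snoo, the fly Ski and Sno relative (rank 591, 17 summits), and daw, an Activin-like ligand (rank 822, 5 summits). Summits of sbb numbered 29, 36 and 33 in the replicates and those of nmo 16 in each. The receptor gene wit, whose product is the type II receptor at the neuromuscular junction, had rank 3354, between tkv and sax. Smox, the Smad of the Activin branch, had a best rank of 2016.

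Among the extracellular modulators the best ranks belonged to the proteases tld (1899) and tok (1976) and to cv-2 (2247, 9 summits), a BMP-binding protein of the wing crossveins. Of the intracellular regulators Fkbp12, whose vertebrate relative binds type I receptors, had rank 6506. Only kni of the 6 target genes of Dpp in the wing disc is under 5 kb. In the length classes of the others, 55.3% to 61.8% of protein-coding genes had a summit, against 35.8% over all lengths. Of these 6 target genes, 2 (33.3%) had a summit. These were vg (rank 4938) and bi (rank 9969), the gene also called omb, with 1 each, and salm, salr, kni and Dll held none. The pooled list held 22 summits at bi, 7 at Dll, 1 at vg and 0 at salm, salr and kni. In the replicates vg had 0, 1 and 1 strong summits and bi had 0, 1 and 0.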

How the data were processed

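The authors' deposited lists give per peak an interval, a signal (the caller's score) and a summit offset, in dm6. Per the file headers, a control alignment entered each call, and the pooled list and the thresholded one (optimal peaks by irreproducible discovery rate, IDR) were made from replicates 2 and 3. Not given in the sources used here are the aligner, the caller and the threshold of the IDR. Read depth is unknown. Each full list holds 30000 peaks, and replicates were compared over their 11195 strongest.

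Genes came from Ensembl release 115 (BDGP6.54), and 30540 of 30593 start codons (99.8%) read ATG in the RefSeq sequence. A summit counted for a gene in its body or 1000 bp upstream. Summits matched within 100 bp. Promoters reached 500 bp from a start site. Intervals are exact binomial (95%), and a count of 0 was given a limit of 3 counts in place of an interval. In all, 9 motifs were searched.

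The samples form 1 group, so no contrast was tested, and counts stand beside the same over all genes or summits. Scripts used Python 3.11.15, numpy 2.4.6, pandas 2.3.3, scipy 1.17.1 and matplotlib 3.10.9, and the counting was tested on simulated data. The wider list of 42 genes and the other lists, like the members, were chosen with earlier results of these data known. Named were all 10 genes, genes of the wider list with a summit among the 1000 strongest or among the 3 best-ranked of their role, protein-coding genes within 2 summits of shn, and genes that share a summit of the 10. RefSeq's synonyms gave sbb for mtv. The flanks up to the neighbouring genes were added after seeing the data.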

Additional observations from a re-analysis of the deposited data

How the results depend on the processing

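The number of the 10 genes with a summit was 10 in the pooled list, 9 in each replicate and within 500 bp of own start sites, and 7 with the body alone or the 5597 strongest peaks. For own start sites, the body alone, the 5597 strongest peaks and the flanks, no share over all protein-coding genes is given. Those counts show only how the number moved with the setting. Within 500 bp of a gene's own start sites, the 10 genes had 17 summits, shn 6 and tkv 2. The pooled list in full gave 132 for the 10 genes and 40 for tkv. The 5597 strongest peaks gave 36 summits for the 10 genes, 18 for shn and 7 for tkv. With promoters drawn to 1000 bp, the promoter share was 33.8% in place of 26.8%. Of 120 settings for single genes, ranks and motif shares, 68 stayed within the set limits and 52 moved. Most moves were of genes with 1 to 3 summits: with the body alone gbb, sax and brk had 0. With flanks up to the neighbouring genes, chosen after seeing the data, 8 of the 10 had a summit: dpp had 5, Med 12 and brk 15, and gbb and sax 0. The core GAGAG matched at 18.3% of summits within 50 bp and 66.2% within 200 bp, where all summits had 53.2%. No paired analysis was possible because the samples form 1 group. Read depth is unknown, so the absence of a summit, as in the first 10 kb of shn, says only that no peak was listed there. Tissues cannot be told apart in whole larvae.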
